A study of Homo sapiens with 2 samples.

Results

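The genes described here are the solute carriers with a row in the authors' deposited table for the human embryonic stem cell line HES2, which is an established line. They were taken by gene symbol (names that begin with SLC and a family number, or with SLCO, antisense RNAs left out), and 47 of the 2005 listed genes met this. One culture had been infected with a scramble lentivirus and the other with a lentivirus carrying a short hairpin RNA (shRNA) against TFCP2L1, a transcription factor of the pluripotency network. Passaging went on 3 times for each culture, in medium with 10% KSR to which 10 ng/ml of FGF2 and 10 ng/ml of Activin A were added, and the labels do not say whether the cells were cloned or pooled. There was 1 library per group, so differences have no replicate check and no p-value of the conditions is given. The table holds genes that passed the authors' limits, including a level ratio of at least 2-fold, so every row differs by that measure, and a gene with no row has no level here.

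Solute carriers are membrane proteins that move small molecules across the plasma membrane or the membranes of organelles without splitting ATP themselves. They are numbered by sequence family, and a family often shares a kind of substrate, such as amino acids, sugars, bicarbonate, zinc, nucleotide sugars or vitamins. Many work as exchangers or are driven by the sodium or proton gradient. Embryonic stem cells grow fast and depend on imported glucose, glutamine and essential amino acids.

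The targeted gene TFCP2L1 had 692 and 69 inferred reads, a ratio of 0.103 (interval 0.0793 to 0.132). Throughout, the scramble value comes first and the knockdown value after it, and ratios are knockdown over scramble. Levels are in FPKM, which scales reads by transcript length and library depth. Each interval is an exact Clopper-Pearson one at 95%. It covers counting error alone, and no variation between cultures or libraries. Reads that carry no molecular identifier are not independent molecules, so it can be too narrow even for counting error. Depth, worked out from the deposited values, was about 23500000 and 22720000 reads, and the carriers had 18 to 27443 reads each over both libraries, with a median of 334. All 12 markers of primitive streak and endoderm were listed and higher, with summed levels of 12.2 and 1423 FPKM and SOX17 at 0 scramble reads. Of 12 markers of the pluripotent state 5 were listed, all lower (summed level 542 and 201 FPKM). Of 8 mesenchyme or feeder fibroblast markers 1 was higher and 1 lower (196 and 240 FPKM summed), of 4 neuroectoderm markers 1 was higher and 1 lower (120 and 261 FPKM), and of 5 trophectoderm markers KRT8 was higher (293 and 640 FPKM). These marker levels moved along with every carrier difference given here, and their part in those differences was not tested. In bulk RNA, fewer cells of a type and less RNA per cell cannot be told apart.

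RefSeq promoters were matched for 32 of the 47 genes. The 250 bases before the annotated start (GRCh38.p14) are printed for the listed carrier with the highest level, SLC7A5 (chr16:87869508-87869757, minus strand). They are also printed for the listed carrier with the lowest ratio at 1 FPKM or more, SLC16A10 (chr6:111087253-111087502, plus strand). The matched carriers with the highest ratios at that level, SLC9A9 (chr3:143848469-143848718, minus strand) and SLC1A1 (chr9:4490218-4490467, plus strand), follow. Capitals mark matches, on either strand, to a CP2-type motif (CP2 is the family of TFCP2L1) made of CCNG, any 6 bases and CCNG, to the amino acid response motif TGATGNAA or to the E-box CACGTG, the letters that MYC proteins can bind.
SLC7A5: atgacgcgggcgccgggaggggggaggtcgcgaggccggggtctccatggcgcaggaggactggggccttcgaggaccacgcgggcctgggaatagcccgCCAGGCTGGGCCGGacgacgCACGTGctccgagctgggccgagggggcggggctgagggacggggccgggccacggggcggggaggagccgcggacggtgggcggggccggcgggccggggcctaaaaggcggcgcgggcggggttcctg
SLC16A10: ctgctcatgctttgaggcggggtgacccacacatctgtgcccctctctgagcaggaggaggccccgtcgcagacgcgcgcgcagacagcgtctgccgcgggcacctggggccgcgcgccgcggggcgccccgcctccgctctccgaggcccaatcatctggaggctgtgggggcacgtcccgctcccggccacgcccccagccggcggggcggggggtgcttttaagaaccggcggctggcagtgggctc
SLC9A9: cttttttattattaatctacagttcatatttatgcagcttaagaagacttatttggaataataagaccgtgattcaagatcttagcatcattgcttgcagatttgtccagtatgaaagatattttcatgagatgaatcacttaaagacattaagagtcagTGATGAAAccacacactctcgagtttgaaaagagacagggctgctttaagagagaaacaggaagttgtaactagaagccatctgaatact
SLC1A1: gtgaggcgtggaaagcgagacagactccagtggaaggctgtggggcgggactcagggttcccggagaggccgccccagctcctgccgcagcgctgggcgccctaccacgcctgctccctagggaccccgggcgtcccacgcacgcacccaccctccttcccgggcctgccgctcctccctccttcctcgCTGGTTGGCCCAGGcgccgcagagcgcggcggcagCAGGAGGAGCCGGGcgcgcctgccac

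The SLC7A5 window held 1 CP2-type match and 1 E-box, and the SLC1A1 window held 2 CP2-type matches. SLC9A9, whose window was 34% G and C against 79.6% for SLC7A5, held 1 amino acid response match, and the SLC16A10 window held none of the 3 motifs. Over the 32 matched carriers, the CP2-type letters occurred before 21 (65.6%), compared with 55.2% of 1378 matched listed genes and 38.5% of the 27305 genes in the promoter table. They stood before 11 of 18 carriers that were higher and before 10 of 14 that were lower. The median window was 68.0% G and C for the carriers, 62.8% for listed genes and 58.0% over all windows, and the motif is itself rich in these bases. The amino acid response letters occurred before 2 carriers, SLC9A9 and SLC17A7 (6.25%, against 4.21% of listed genes and 3.89% of all genes). The E-box occurred before 4 carriers, SLC7A5, SLC12A7, SLC39A8 and SLC43A1 (12.5%, against 10.2% of listed genes and 7.73% of all genes). A match describes letters and is not a binding site.

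Carriers differed in both directions, and as a whole they were listed about as often as other genes. Of the 47, 25 were higher and 22 lower in the knockdown library, which is 53.2% higher beside 54.1% of all listed genes, of which 45.9% were lower. RefSeq names 393 protein-coding carriers (5 symbols that fit the pattern but name other or read-through genes were left out), and 12% of them had a row. A carrier listed under an older name without SLC would be missed, so this share and those of families and classes may be too low. Among all genes the authors tested, inferred as 18489, 10.8% had a row, 5.86% as higher and 4.98% as lower. The carriers came from 25 of 58 families. Among the families with no row were family 10 (bile acid carriers, 7 genes), family 26 (anion exchangers, 10 genes) and family 27 (fatty acid carriers, 6 genes).

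With a level of 1 FPKM or above in either library, 20 carriers (42.6%) passed 2-fold higher and 17 (36.2%) passed 2-fold lower on the log2(FPKM + 0.1) scale, which understates the change of low genes. The same held for 40.8% and 35.4% of all listed genes. Past 4-fold were 6 carriers that were higher (12.8%) and 2 that were lower (4.26%), close to the 12% and 5.34% of all listed genes. The highest log2 ratio of a carrier was 3.22, while listed genes reached 9.20. In the authors' deposited table the median size of the log2 ratio was 1.58 for the carriers and 1.62 for all rows. Carriers that were higher started from a median scramble level of 0.78 FPKM, and 14 of the 25 were under 1 FPKM there. Carriers that were lower started from a median of 3.83 FPKM. All listed higher genes started from a median of 0.90 FPKM and all lower genes from 2.91 FPKM.

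**Figure D1:**
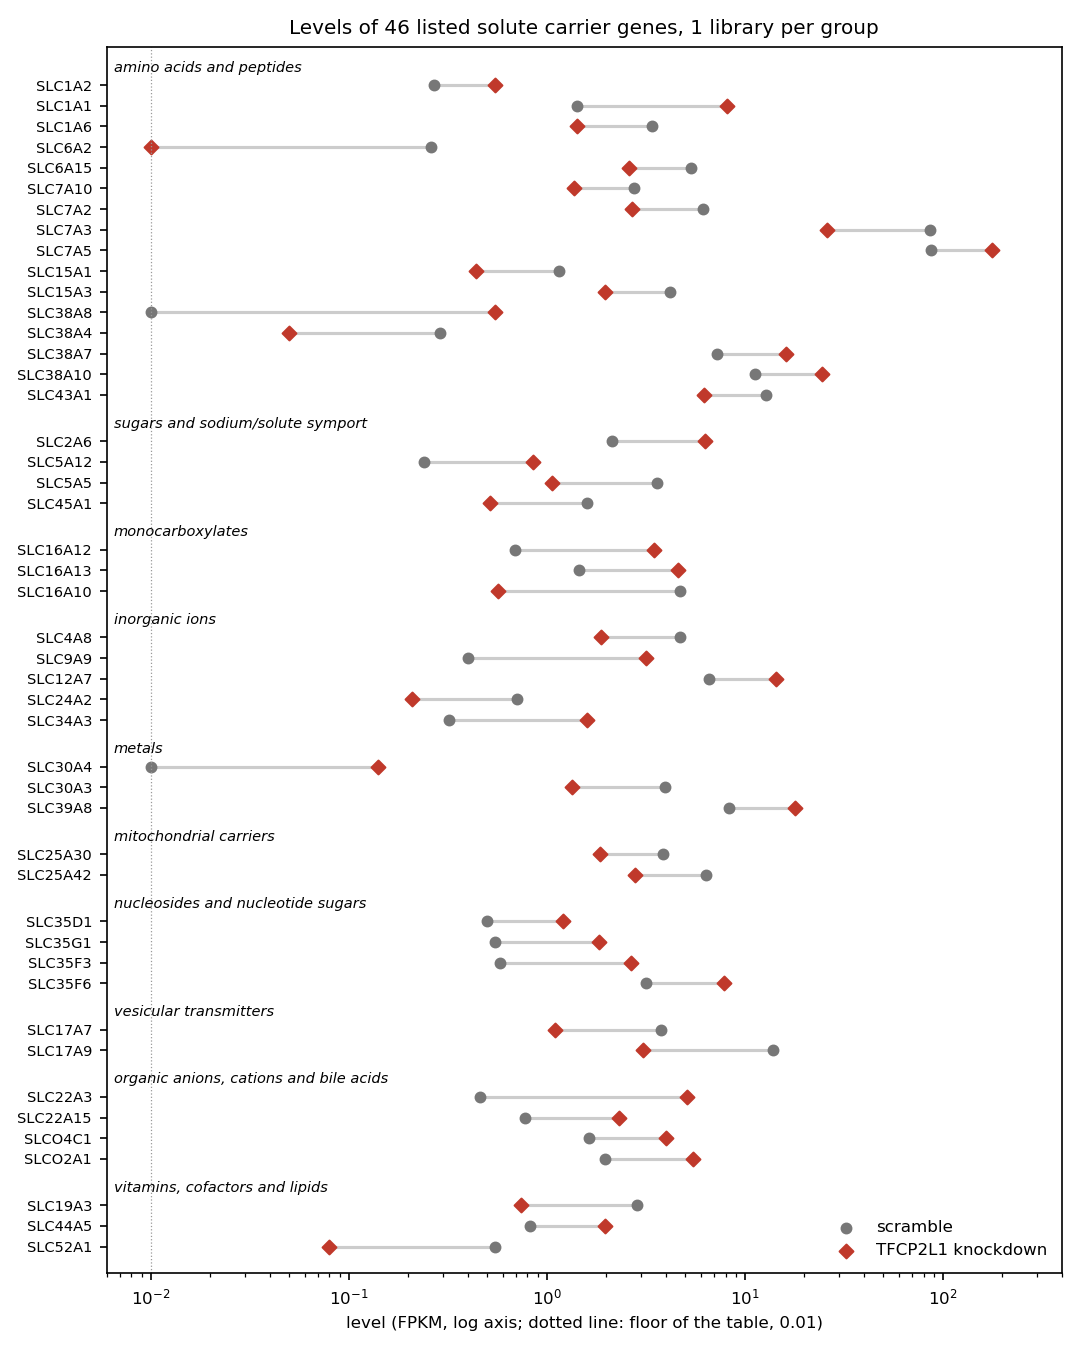
Level of 46 of the 47 listed solute carrier genes (FPKM, log axis) in the scramble library (grey circles) and the TFCP2L1 knockdown library (red diamonds), 1 library per group, arranged by substrate class. SLC7A5 and SLC7A3 are the rightmost pair, at scramble levels of 87.6 and 85.9 FPKM, and lie on opposite sides in the knockdown library (177 and 26.2 FPKM).

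By substrate class, which was set by family number alone, the listed carriers were unevenly spread. Single members can carry something else than their class name says. The noradrenaline carrier SLC6A2 counts under amino acids, and SLC16A10, a carrier of aromatic amino acids, counts under monocarboxylates. Families of amino acid and peptide carriers made up 17 of the 47 rows, and 24.6% of their 69 RefSeq genes had a row. In contrast, 2 of 48 mitochondrial carriers of family 25 (4.17%) and 5 of 65 carriers of inorganic ions (7.69%) had a row. The share over tested genes was 10.8%, on another denominator than RefSeq. Of 13 families with at least 2 rows, 7 had rows in both directions. Families 22, 35 and SLCO had higher rows only, and families 15, 17 and 25 lower rows only, with 2 to 4 rows each.

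**Figure D2:**
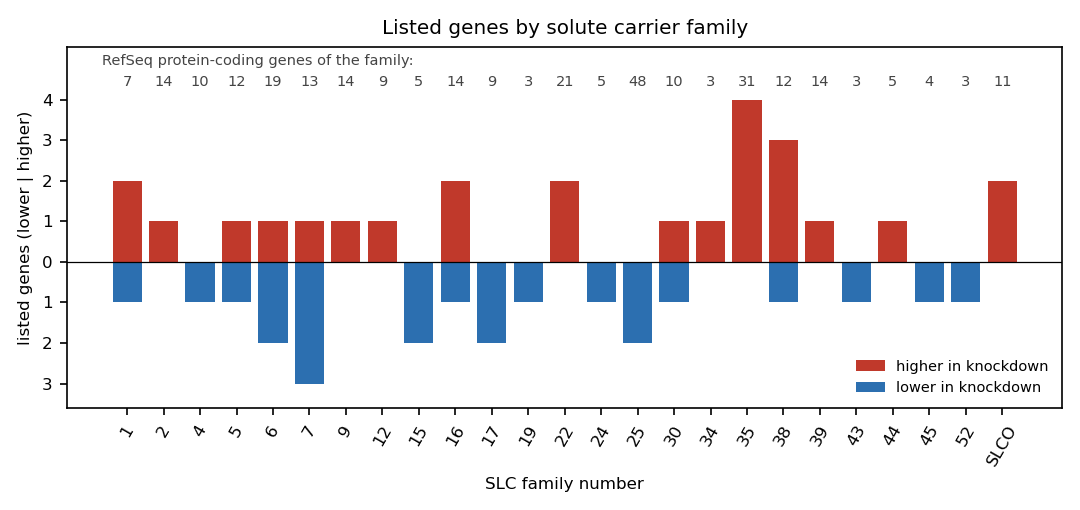
Number of listed genes in each solute carrier family, with genes higher in the knockdown library above the line (red) and lower ones below it (blue). The number of RefSeq protein-coding genes of the family stands above each bar, and family 35 shows 4 higher rows while family 7 shows 1 higher and 3 lower rows.

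Family 7 held the 2 most abundant listed carriers, and they went in opposite directions. SLC7A5 (gene ID 8140), the light chain of the LAT1 exchanger that brings in large neutral amino acids such as leucine, was at 87.6 and 177 FPKM. Its reads, estimated from level and length as 9287 and 18156, gave a ratio of 2.02 (interval 1.97 to 2.07). SLC7A3 (gene ID 84889), a carrier of the cationic amino acids arginine and lysine, was at 85.9 and 26.2 FPKM, 3.28-fold lower (interval 3.08 to 3.49, reads estimated in the same way). The level of SLC7A5 was 1.02 times that of SLC7A3 under scramble and 6.77 times under knockdown. Together they made up 55.7% and 54.9% of the summed FPKM of the 47 carriers. The other 45 carriers summed to 138 and 167 FPKM, and the highest of them was at 13.9 FPKM under scramble and 24.5 FPKM under knockdown.

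The remaining rows of family 7 were lower. SLC7A2, another cationic amino acid carrier, was at 6.19 and 2.69 FPKM on 1097 and 464 reads, 2.29-fold lower (interval 2.05 to 2.55). SLC7A10, which exchanges small neutral amino acids such as serine, was at 2.76 and 1.37 FPKM on 122 and 59 reads, and its interval of 1.45 to 2.78-fold lower spans 2-fold. With the pseudocount its log2 ratio was -0.96, which made it the 1 carrier at 1 FPKM or more that missed the 2-fold rule. SLC3A2, the heavy chain that pairs with SLC7A5, had no row.

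Of the 4 listed carriers of the sodium-coupled neutral amino acid family 38, 3 were higher and 1 lower, beside 54.1% higher among all listed genes. SLC38A10 was at 11.3 and 24.5 FPKM on 1039 and 2199 reads, a ratio of 2.19 (interval 2.03 to 2.36). SLC38A7, a lysosomal glutamine and asparagine carrier, was at 7.25 and 16.1 FPKM on 683 and 1465 reads, a ratio of 2.22 (interval 2.02 to 2.43). SLC38A8 had 0 scramble reads and 18 knockdown reads (0.55 FPKM), which is 6.21-fold against a floor of 3 reads in the scramble library (interval of the ratio from 4.55 upward). SLC38A4, a liver-type carrier, was the lower row, at 0.29 and 0.05 FPKM on 25 and 4 reads, a ratio of 0.165 (interval 0.0419 to 0.479). The first 2 genes hold nearly all reads of this family, and SLC38A8 and SLC38A4 stayed under 1 FPKM in both libraries.

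Among the listed high-affinity glutamate carriers of family 1, SLC1A1 and SLC1A6 exchanged their order. SLC1A1 (gene ID 6505), the EAAT3 carrier that takes up glutamate, aspartate and cysteine, was at 1.42 and 8.18 FPKM on 123 and 686 reads, a ratio of 5.77 (interval 4.75 to 7.05). SLC1A6, the EAAT4 carrier best known from the cerebellum, was at 3.41 and 1.43 FPKM on 166 and 62 reads, 2.59-fold lower (interval 1.92 to 3.52). In FPKM, SLC1A6 was 2.40 times SLC1A1 under scramble, and SLC1A1 was 5.72 times SLC1A6 under knockdown. SLC1A2, the main glial glutamate carrier, was low in both libraries at 0.27 and 0.55 FPKM on 75 and 150 reads (ratio 2.07, interval 1.56 to 2.77).

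The neurotransmitter and amino acid family 6 had 3 rows, 1 higher and 2 lower. Of the lower ones, SLC6A15, a carrier of branched-chain amino acids and proline, was at 5.35 and 2.59 FPKM on 543 and 259 reads, 2.03-fold lower (interval 1.74 to 2.36). The noradrenaline carrier SLC6A2 was at 0.26 FPKM on 20 scramble reads and had 1 knockdown read, a ratio of 0.0517 (interval 0.00125 to 0.323). SLC6A2 stayed under 1 FPKM in both libraries, and its ratio rests on few reads.

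The listed peptide carriers were lower, and so was SLC43A1, another listed carrier of large neutral amino acids. SLC15A1, the PEPT1 carrier of di- and tripeptides, was at 1.15 and 0.44 FPKM on 82 and 30 reads, 2.64-fold lower (interval 1.72 to 4.16). SLC15A3, a lysosomal peptide and histidine carrier, was at 4.21 and 1.97 FPKM on 204 and 92 reads, 2.14-fold lower (interval 1.67 to 2.77). SLC43A1, the LAT3 facilitator of branched-chain amino acids, was at 12.9 and 6.22 FPKM on 729 and 333 reads, 2.12-fold lower (interval 1.86 to 2.42). Over the whole class of amino acid and peptide carriers, 7 rows were higher and 10 lower, and the median log2 ratio of the 12 members at 1 FPKM or more was -1.03, beside 1.02 over all 1587 listed genes at that level. The class median was -0.0019 with a minimum of 5 FPKM, and the class mean at 1 FPKM or more was -0.31, so its distance from the listed genes depends on these choices. Every row lies at or beyond 2-fold by level, so a median falls on the side with more rows.

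Family 16, named for monocarboxylates, held the lowest ratio of all listed carriers at 1 FPKM or more. SLC16A10 (gene ID 117247), the TAT1 carrier of aromatic amino acids and thyroid hormones, was at 4.71 and 0.57 FPKM on 315 and 37 reads, 8.23-fold lower (interval 5.84 to 11.9). SLC16A12, a creatine carrier, was at 0.69 and 3.50 FPKM on 72 and 359 reads, a ratio of 5.16 (interval 3.99 to 6.74). SLC16A13 was at 1.45 and 4.60 FPKM on 58 and 179 reads, a ratio of 3.19 (interval 2.36 to 4.37). SLC16A10 was 6.83 times SLC16A12 under scramble, and SLC16A12 was 6.14 times SLC16A10 under knockdown. The lactate and pyruvate carriers of this family, such as SLC16A1, had no row.

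All 4 listed carriers of organic cations and anions were higher. SLC22A3 (gene ID 6581), the OCT3 carrier of organic cations and monoamines, was at 0.46 and 5.13 FPKM on 34 and 371 reads, a ratio of 11.3 (interval 7.93 to 16.5). This was the highest log2 ratio of any listed carrier on the pseudocount scale. SLC22A15 was at 0.78 and 2.33 FPKM on 130 and 360 reads, a ratio of 2.86 (interval 2.34 to 3.53). SLCO2A1, the prostaglandin carrier, was at 1.96 and 5.46 FPKM on 187 and 507 reads, a ratio of 2.80 (interval 2.37 to 3.33), and SLCO4C1 was at 1.64 and 4.02 FPKM. The median log2 ratio of the 4 was 1.45, near the 1.47 over all listed higher genes at 1 FPKM or more. Of all listed genes 54.1% were higher, and 4 rows are few to set against that share.

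All 4 rows of family 35, whose best known members carry nucleotide sugars into the endoplasmic reticulum and Golgi, were also higher. SLC35F6, a lysosomal member, was at 3.17 and 7.88 FPKM on 286 and 688 reads, a ratio of 2.49 (interval 2.16 to 2.87). SLC35F3, reported as a thiamine carrier, was at 0.58 and 2.68 FPKM on 39 and 172 reads, a ratio of 4.56 (interval 3.21 to 6.63). SLC35G1 was at 0.55 and 1.84 FPKM on 44 and 144 reads, a ratio of 3.38 (interval 2.40 to 4.86). SLC35D1, which brings UDP-glucuronic acid and UDP-N-acetylgalactosamine into the endoplasmic reticulum, was at 0.50 and 1.21 FPKM on 75 and 177 reads, a ratio of 2.44 (interval 1.85 to 3.24). SLC35D1 had the lowest level of the 4 in both libraries. The median log2 ratio of the family was 1.43, near the 1.47 over all listed higher genes at 1 FPKM or more. Of its 31 RefSeq genes 12.9% had a row, beside 10.8% of tested genes. As above, 54.1% of all listed genes were higher, and 4 rows are few.

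Both listed vesicular carriers of family 17 were lower. SLC17A9 (gene ID 63910), which loads ATP and other nucleotides into secretory vesicles and lysosomes, was at 13.9 and 3.06 FPKM. Under scramble it was the third highest of the listed carriers. Its 1481 and 280 reads made it 5.11-fold lower (interval 4.50 to 5.83), while the levels differ by 4.55-fold. SLC17A7, the vesicular glutamate carrier VGLUT1, was at 3.80 and 1.10 FPKM on 261 and 73 reads, 3.46-fold lower (interval 2.66 to 4.55).

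The 3 listed carriers of zinc went in both directions, and so did those of family 30. SLC39A8, the ZIP8 importer of zinc, manganese and iron, was at 8.37 and 17.8 FPKM on 623 and 1282 reads, a ratio of 2.13 (interval 1.93 to 2.35). SLC30A3, the ZnT3 carrier that fills synaptic vesicles with zinc, was at 3.98 and 1.35 FPKM on 190 and 63 reads, 2.92-fold lower (interval 2.18 to 3.94). SLC30A4, an endosomal zinc exporter, had 2 scramble reads and 23 knockdown reads (0.14 FPKM), a ratio of 11.9 (interval 2.94 to 104). Its scramble level of 0.01 FPKM is the lowest value the table holds.

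Among carriers of protons, bicarbonate and other ions, SLC9A9, the NHE9 exchanger of late endosomes, was at 0.40 and 3.18 FPKM on 34 and 260 reads, a ratio of 7.91 (interval 5.52 to 11.7). SLC34A3, a sodium-phosphate cotransporter of the kidney brush border, was at 0.32 and 1.59 FPKM on 56 and 228 reads, a ratio of 4.21 (interval 3.13 to 5.75). SLC12A7, the KCC4 potassium-chloride cotransporter, was at 6.61 and 14.4 FPKM on 842 and 1771 reads, a ratio of 2.18 (interval 2.003 to 2.36). SLC24A2, a sodium, calcium and potassium exchanger of neurons, was lower at 0.71 and 0.21 FPKM on 180 and 51 reads (ratio 0.293, interval 0.210 to 0.402). The class held 3 higher and 2 lower rows, and SLC4A8, described further on, was the other lower one.

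Family 2, which holds the glucose facilitators, had 1 listed member of 14 (7.14%), near the 10.8% of all tested genes. That row was SLC2A6, the GLUT6 protein of lysosomes, at 2.14 and 6.32 FPKM on 123 and 356 reads (ratio 2.99, interval 2.43 to 3.71), while the main glucose importers SLC2A1 and SLC2A3 had no row. SLC45A1, a proton-coupled sugar carrier of brain, was at 1.60 and 0.52 FPKM on 92 and 29 reads, 3.07-fold lower (interval 2.001 to 4.83). Of family 5, the sodium/iodide symporter SLC5A5 was at 3.62 and 1.06 FPKM on 287 and 82 reads, 3.38-fold lower (interval 2.64 to 4.38), and the sodium-coupled lactate carrier SLC5A12 was higher at 0.24 and 0.85 FPKM. These rows form the class of sugar and sodium/solute symport families, 4 rows with 2 in each direction. The median log2 ratio of this class was -1.46 over its 3 members at 1 FPKM or more and 0.01 over all 4.

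Of the 3 rows in the class of vitamin, cofactor and lipid carriers, 1 was higher and 2 were lower. SLC19A3, the thiamine carrier ThTr2, was at 2.86 and 0.74 FPKM on 249 and 62 reads, 3.88-fold lower (interval 2.93 to 5.22). SLC52A1, a riboflavin carrier, was at 0.55 and 0.08 FPKM on 30 and 4 reads, 7.25-fold lower (interval 2.56 to 28.3). SLC44A5, a choline-like carrier, was higher at 0.82 and 1.96 FPKM on 59 and 138 reads. Both mitochondrial rows were lower: SLC25A42, which carries coenzyme A, was at 6.34 and 2.79 FPKM on 584 and 243 reads (2.32-fold lower, interval 1.997 to 2.71), and SLC25A30 at 3.85 and 1.86 FPKM.

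**Figure D3:**
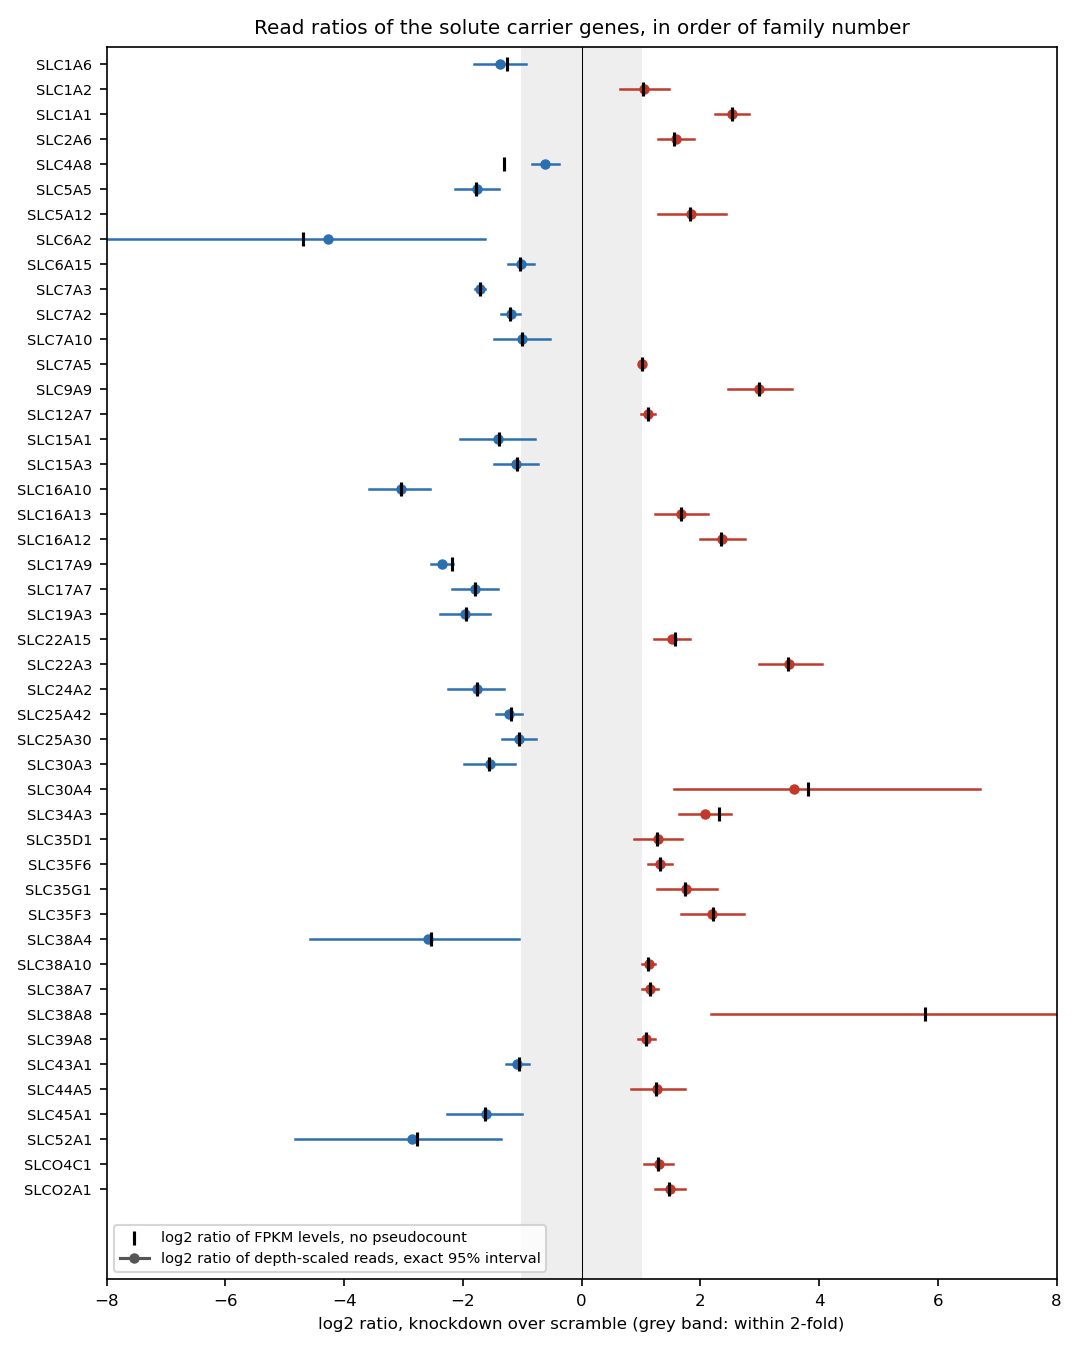
Log2 ratio of depth-scaled inferred reads (points) with exact 95% counting intervals (lines) for 46 of the 47 carriers in order of family number, red for higher and blue for lower in the knockdown library, with black ticks for the log2 ratio of FPKM without a pseudocount. The grey band marks ratios within 2-fold, SLC4A8 lies inside it by reads, SLC38A8 has no point because it had 0 scramble reads, and its line and that of SLC6A2 run past the axis.

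Counting error alone left many of the smaller differences close to 2-fold. At 1 FPKM or more, the interval lay wholly beyond 2-fold for 16 higher carriers (34%) and 9 lower carriers (19.1%), beside 29.9% and 20.9% of all listed genes. Of the 6 lower carriers at 5 FPKM or more, SLC43A1, SLC6A15 and SLC25A42 had intervals that reach inside 2-fold. By the ratio of reads itself, SLC4A8 and SLC7A10 were under 2-fold, 2 of the 47 carriers beside 1.7% of all listed genes.

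For SLC4A8 (gene ID 9498), an electroneutral sodium-driven chloride/bicarbonate exchanger, levels and reads gave different sizes. Its levels were 4.69 and 1.89 FPKM, a 2.48-fold difference. The authors' p-value fits 407 and 258 reads, which is 1.53-fold lower with an interval of 1.30 to 1.79, inside 2-fold. The search for reads held the knockdown library to the deposited length of 6089 bases and left the scramble length free, so a mismatch could appear in the scramble library alone. There, 407 reads at 4.69 FPKM imply 3758 bases, 61.7% of the deposited length. The reverse search, with the scramble library held to that length and the knockdown length free, found no pair for SLC4A8. It found exactly 1 pair for 1696 (88.1%) of the 1926 genes with a p-value above 0, and each gene with a pair in this search shared one with the first search. GENCODE v29 (GRCh38, not the hg19 of the submitters' notes) lists 4 coding transcripts of SLC4A8, of 2262 to 11824 bases, and the RefSeq promoter table gives 2 starts 286 bases apart. Of 1639 listed genes above 0.1 FPKM in both libraries with 1 read pair, 11 (0.671%) had levels and reads that differed by over 1.5 times in this way, and SLC4A8 (1.63 times) was the 1 carrier among them.

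Smaller gaps were seen in other carriers. The scramble reads of SLC34A3 imply a length of 118% of the deposited one, those of SLC17A9 112% and those of SLC1A6 108%. The reverse search found no pair for any of them either. The deposited length of SLC34A3 is 6373 bases, while its coding transcripts in GENCODE v29 have 2124 to 2162 bases. Its FPKM values thus rest on a length that these transcripts do not reach. The level ratio of SLC34A3 was 4.97 and its read ratio 4.21. SLC1A6 was 2.38-fold lower by level and 2.59-fold lower by reads. Sequence shared with other genes was low: at most 11.6% of the 31-base words of a carrier's longest GENCODE transcript occurred in another gene (SLC35F6), with a median of 0.784%.

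**Figure D4:**
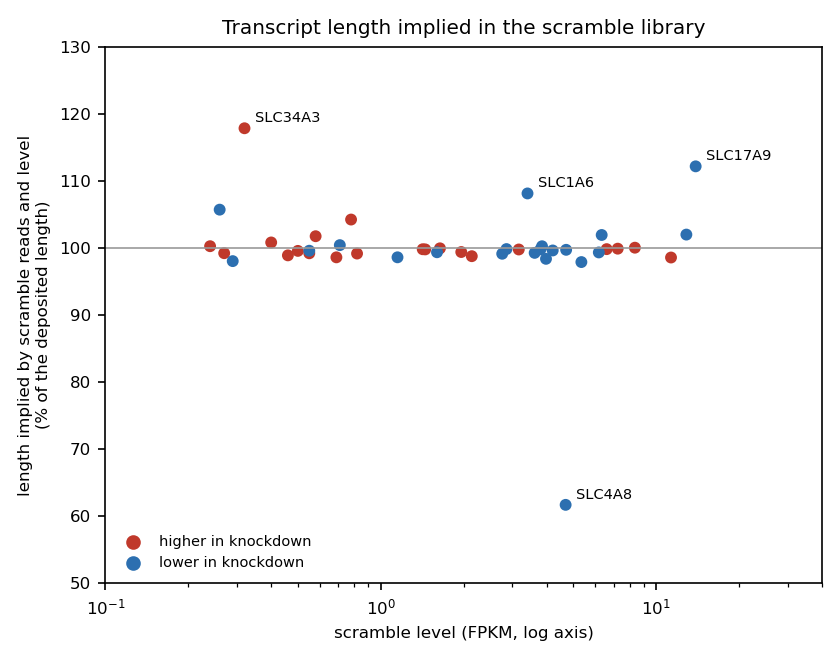
Transcript length implied by scramble reads and scramble FPKM, as a percent of the deposited length, against the scramble level (log axis), for carriers above 0.1 FPKM in the scramble library with 1 read pair. Most points lie near 100%, SLC4A8 is at 61.7%, and SLC34A3, SLC17A9 and SLC1A6 are at 118, 112 and 108%.

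Transporters outside the SLC names were set beside the carriers. Their shares count rows in either direction and are read against the 10.8% of tested genes with a row. That 10.8% is made up of 5.86% listed as higher and 4.98% listed as lower. Of 52 symbols of the ABC family, most of whose members pump with ATP, 1 (1.92%) had a row, as higher. These symbols were built from number ranges and include the ABCE and ABCF genes, which are no transporters. Some may name no human gene, so the share may be too low. Of 48 P-type ATPases and sodium pump subunits, 7 (14.6%) had a row, 2 as higher and 5 as lower. The sodium pump beta subunit ATP1B2 was among the lower ones, at 44 and 18.5 FPKM (ratio 0.422, interval 0.396 to 0.450). Of 14 aquaporins 2 (14.3%) had a row, and both AQP5 (2.02 and 0.67 FPKM) and AQP4 (0.27 and 0.08 FPKM) were lower. Of 55 SLC-type carriers with other names, 8 (14.5%) had a row, 6 as higher and 2 as lower, with the heme exporter FLVCR1 at 7.10 and 15.2 FPKM (ratio 1.97, interval 1.84 to 2.12) and the sphingosine phosphate exporter SPNS2 at 1.75 and 0.53 FPKM (ratio 0.305, interval 0.210 to 0.435). MFSD2A, a lysolipid carrier, was at 2.77 and 5.58 FPKM.

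Of 18 symbols for partner and trafficking proteins of carriers 3 (16.7%) had a row, beside 10.8% of tested genes. These 3 were lower, as were 45.9% of all listed genes. The 18 symbols count some genes under an older and a newer name, such as TMEM27 and CLTRN, so the share per gene is higher. They also hold the LRRC8 genes, which encode anion channel subunits. ARRDC4, an arrestin-like protein that restrains glucose uptake, was at 14.5 and 3.58 FPKM on 1364 and 326 reads, a ratio of 0.247 (interval 0.218 to 0.279). Its relative TXNIP was at 223 and 28.1 FPKM, a ratio of 0.126 (interval 0.12 to 0.132). TMEM27 (collectrin), which helps amino acid carriers of family 6 reach the cell surface, was at 2.09 and 0.84 FPKM on 74 and 29 reads. The glucose carriers whose amount at the membrane TXNIP and ARRDC4 are known to limit had no row, as given above.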

How the data were processed

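RNA from 1 scramble and 1 TFCP2L1 knockdown culture (1 ug of total RNA each, Trizol) went through standard Illumina library steps and a BGISEQ-500 run, according to the protocols in the labels. The submitters' processing notes name hg19 and Bowtie 0.12.2. For counter, test and strand setting: not given in the sources used here. The deposited table gives a level, read as FPKM, for each library (lowest value 0.01), with the log2 ratio, p-value, false discovery rate and gene length that the authors computed. Whether these are RPKM instead is not known, since the header says expression only.

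The table holds no counts. Whole reads were inferred from the deposited p-values as a Poisson comparison of 2 libraries (Audic and Claverie, doubled tail), with a depth ratio of 1.034 (scramble over knockdown). A pair had to fit the p-value within 5e-06 on the natural log and the knockdown FPKM at the deposited length, less 64.2 bases, while the scramble length was free within 3-fold. Exactly 1 pair was found for 1919 (99.6%) of the 1926 genes whose p-value is not 0, 45 carriers among them. SLC7A5 and SLC7A3 have a p-value printed as 0, and their reads were estimated from FPKM and length. The scripts were tested on simulated data. The planned counts and medians used a pseudocount of 0.1 FPKM and a minimum of 1 FPKM in at least 1 library. Other pseudocounts, minimum levels, folds and means were tried, and the ratio of inferred reads and the reverse length search were added after the data were seen.

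The members and lists were chosen with earlier results of these data known. A few genes are not reported here by name and are left out of the plots of single genes, but they remain in all counts and medians. Every other carrier row could be named. Full values were planned for the 10 highest and 10 lowest ratios and for families of at least 3 rows. They are also given for some further rows. Promoter motifs and the 4 printed promoters were chosen after the values were seen. Python 3.11.15, scipy 1.17.1 and pandas 2.3.3 were used.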

Additional observations from a re-analysis of the deposited data

How the results depend on the processing

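With 1 library per group, no replicate could be left out. No paired analysis was possible because each group has 1 library. Beside 20 higher and 17 lower carriers, a minimum of 5 FPKM gave 10 and 6 and a 4-fold limit gave 6 and 2. A pseudocount of 1 FPKM gave 7 lower carriers, and counting intervals wholly beyond 2-fold gave 9 lower. The median log2 ratio of 1.05 became 0.17 as a mean, since the rows lie on both sides of a gap. The amino acid class (-1.03) was at -0.0019 with a minimum of 5 FPKM and at -0.31 as a mean, and the monocarboxylate class (1.60) at 0.31 as a mean. The organic anion and cation class (1.45) was at 2.33 with a minimum of 5 FPKM. The class of sugar and sodium/solute symport families (-1.46) changed sign. It was at 0.014 with no minimum level and at 1.52 with a minimum of 5 FPKM, where fewer or other members enter. With a pseudocount of 1 FPKM it was at -0.77, and as a mean at -0.54. Of 140 recomputed values of single carriers, 28 values, from 19 genes, moved by over 1.5 times. None changed sign, but none could: a pseudocount keeps the sign of a ratio. The search for reads took its direction from the levels. The 25 higher and 22 lower rows by the ratio of inferred reads were therefore fixed in advance and are no check. Depth limits SLC38A8, SLC30A4, SLC6A2, SLC38A4 and SLC52A1, which rest on 0 to 4 reads in 1 library.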

Other observations

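An antisense RNA of a mitochondrial carrier gene, SLC25A25-AS1, met the symbol pattern and was left out as no carrier. Its scramble and knockdown levels were 1.81 and 4.04 FPKM (log2 ratio 1.12 with a pseudocount of 0.1 FPKM). SLC25A25 itself had no row, and since the strand setting of the counting is not given in the sources used here, reads from the gene and its antisense partner cannot be told apart.

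By the cellular component terms in the deposited table, 5 carriers are placed in lysosomes, endosomes or vacuoles. Of these, 3 were higher (SLC9A9, SLC30A4 and SLC35F6) and 2 lower (SLC15A3 and SLC30A3). The terms leave out SLC38A7 and SLC2A6 (higher) and SLC17A9 (lower), which are described above with lysosomes. The 10 with a plasma membrane term split into 5 higher and 5 lower, and the 2 mitochondrial ones were both lower. Among all listed genes 54.1% were higher and 45.9% lower, and these groups are small beside that.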
